A study of Mus musculus with 4 samples.

Results

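The 8 genes described here, En1, Shox2, Pax2, Barx1, Dlx3, Gbx2, Msx1 and Msx2, encode homeobox and paired-box transcription factors outside the Hox clusters. They were read through every probe set whose platform annotation gives 1 of these symbols and no other, which came to 10 probe sets of the 12422 tested, and 8 genes of the 8251 named by a probe set with a single symbol. Barx1 and Shox2 had 2 probe sets each. The genes were chosen by role and annotation, but also selected on signals of these same 4 arrays, between the groups and by replicate number, since earlier results were known. Their values below are therefore a description, and no p-value is given for them.

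Gene expression was measured on 4 Affymetrix arrays, 2 in each of 2 groups. Both groups were mouse embryonic fibroblasts of mixed FVB;129Sv background that carry the Men1 knockout. The Men1-complemented cells had been given Men1 back, and the vector cells had been given vector alone. Men1 encodes menin, a nuclear scaffold that works with histone methyltransferases, and the arrays were made to find genes whose expression depends on it. All cells grew in medium with 10% serum, were plated at 70% density and were collected 24 h later. The age of the embryos, the vector used and whether the cells came from 1 line or several are not given in the sources used here. Nothing there says that arrays of a group came from separate cultures, so the spread within a group may be technical.

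Homeodomain proteins bind short AT-rich DNA sites and set the regional identity of cells in the embryo, and paired-box proteins carry a further DNA-binding domain. In the limb, En1 marks the ventral ectoderm, Msx1 and Msx2 act in the mesenchyme downstream of BMP signals, and Shox2 is needed for the upper limb bones. Methylation of histone H3 at promoters by the menin and MLL complexes is known best for Hox genes.

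The sequence upstream of the annotated start was at hand for 7 of the 8 genes, from RefSeq on GRCm38.p6. The 3 genes whose signal differed by replicate number, En1, Shox2 and Pax2, are shown beside Barx1, which has 1 probe set whose groups did not overlap. Each stretch is the 250 bases before the start, 5′ to 3′ on the gene's strand. Capitals mark, on either strand, the letters GGGCGG of a GC box, the CCAAT of a CCAAT box, the letters TATAAA of a TATA box, and the letters TAATTA that many homeodomains bind.
En1, chr1:120602237-120602486, plus strand: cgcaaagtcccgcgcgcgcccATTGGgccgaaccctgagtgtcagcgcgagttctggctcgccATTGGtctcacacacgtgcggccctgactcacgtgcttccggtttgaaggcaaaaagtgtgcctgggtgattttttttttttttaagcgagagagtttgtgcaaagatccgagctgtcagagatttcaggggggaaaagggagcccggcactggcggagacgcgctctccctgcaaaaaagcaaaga
Shox2, chr3:66981772-66982021, minus strand: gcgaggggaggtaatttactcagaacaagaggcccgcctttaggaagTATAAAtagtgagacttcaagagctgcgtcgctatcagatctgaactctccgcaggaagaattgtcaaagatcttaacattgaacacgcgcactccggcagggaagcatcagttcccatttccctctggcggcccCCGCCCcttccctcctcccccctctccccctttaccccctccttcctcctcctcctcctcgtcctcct
Pax2, chr19:44746351-44746600, plus strand, first of 3 annotated starts: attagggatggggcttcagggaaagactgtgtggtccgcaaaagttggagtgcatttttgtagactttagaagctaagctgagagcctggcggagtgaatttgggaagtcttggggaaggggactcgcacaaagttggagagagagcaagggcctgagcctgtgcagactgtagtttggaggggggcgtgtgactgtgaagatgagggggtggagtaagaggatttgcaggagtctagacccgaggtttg
Barx1, chr13:48662786-48663035, plus strand: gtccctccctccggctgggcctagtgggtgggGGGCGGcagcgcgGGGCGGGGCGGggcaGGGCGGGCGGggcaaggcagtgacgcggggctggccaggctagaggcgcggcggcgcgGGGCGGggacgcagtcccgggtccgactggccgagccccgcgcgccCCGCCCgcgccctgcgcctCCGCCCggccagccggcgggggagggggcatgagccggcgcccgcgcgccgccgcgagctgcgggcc
Among 32851 upstream windows of the same length, the GC box letters were found in 32.7%, the CCAAT box in 33.8%, the TATA box in 12.4% and the homeodomain site in 4.84%. The En1 window held 2 CCAAT boxes. The Shox2 window held 1 GC box and 1 TATA box. The Barx1 window held 8 GC boxes, some of which overlap each other. No match was found in the first Pax2 window, and the windows at its other starts held 1 GC box each. These matches are a description of the letters, and whether any acts as a promoter element was not tested. G and C made up 56.0% of the En1 window, 55.6% of Shox2, 52.8% of the first Pax2 window and 85.6% of Barx1, where the median over all windows was 52.4%. The count of CG pairs was 19 for En1, 11 for Shox2, 5 for the first Pax2 window and 40 for Barx1, against a median of 6. The windows at the other Pax2 starts had 20 and 25 CG pairs, with 60.8% and 72.8% G and C, so the Pax2 values depend on the start. No 1 of the 4 motifs was present in all 3 windows of En1, Shox2 and Pax2 shown.

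Signals of the fibroblast markers were uneven. Col1a1, the main chain of collagen I and the brightest of the list, read between 6057 and 7619 on the 4 arrays. Vim read between 24.2 and 37.5. Of the 19 measured markers of the list, 17 exceeded the controls on at least 1 array, beside 9258 of all 12422 probe sets. So did 8 of 12 skeletal muscle, 5 of 11 neural, 5 of 12 epithelial, 4 of 9 blood and 3 of 9 endothelial markers. On all 4 arrays the controls were exceeded by 12 of the 19 fibroblast markers. Tubb3 and Sox2 of the neural list read 770.2 to 1194 and 505.2 to 928.2, and Actc1 of the muscle list 717.8 to 992.9. Such counts and signals alone do not set the cell type. The fibroblast surface markers Thy1 and Fap did not exceed the controls on any array. The controls are 19 probe sets for bacterial and yeast genes, and the brightest of them reached 25.9 and 27.4 for Men1-complemented replicates 1 and 2, against 15.9 and 20 for vector replicates 1 and 2. Where a group has no array above its own brightest control, the probe set is said to be at control level in that group. The Men1 probe set gave 18.8 and 22.5 in Men1-complemented cells, at control level, against 18.1 and 29.5 in vector cells. Whether it lies in the deleted or the returned sequence is not known here, and it checks the labels in neither direction. The arrays differed by the replicate number in their titles over the whole table. The replicate 2 arrays did not overlap the replicate 1 arrays for 44.7% of probe sets, with replicate 2 higher for 28.7%. Both Men1-complemented arrays lay above both vector arrays for 10.4% and below them for 11.7%. What the number stands for is not given in the sources used here. In a bulk sample, fewer cells that express a gene and less of its RNA per cell cannot be told apart.

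En1, Shox2 and Pax2 had far more signal on the replicate 2 arrays than on the replicate 1 arrays, in Men1-complemented and vector cells alike. Where both signals exceeded the controls, replicate 2 was 3.01 to 16.1 times replicate 1. The other members had no such split. Over all 10 probe sets, 4 were higher on both replicate 2 arrays and 0 were lower, beside 28.7% of all probe sets that were higher and 44.7% that were apart in either direction. The same 4 exceeded 1 on the log2 scale in each group as read, a size chosen after the data were seen, which 49 of all probe sets did (0.394%). For the dimmer Shox2 probe set in Men1-complemented cells this rests on a replicate 1 signal below the control, and against the control its difference was at least 0.31, so 3 of the 4 exceed 1 when such signals are set to the control.

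**Figure D1:**
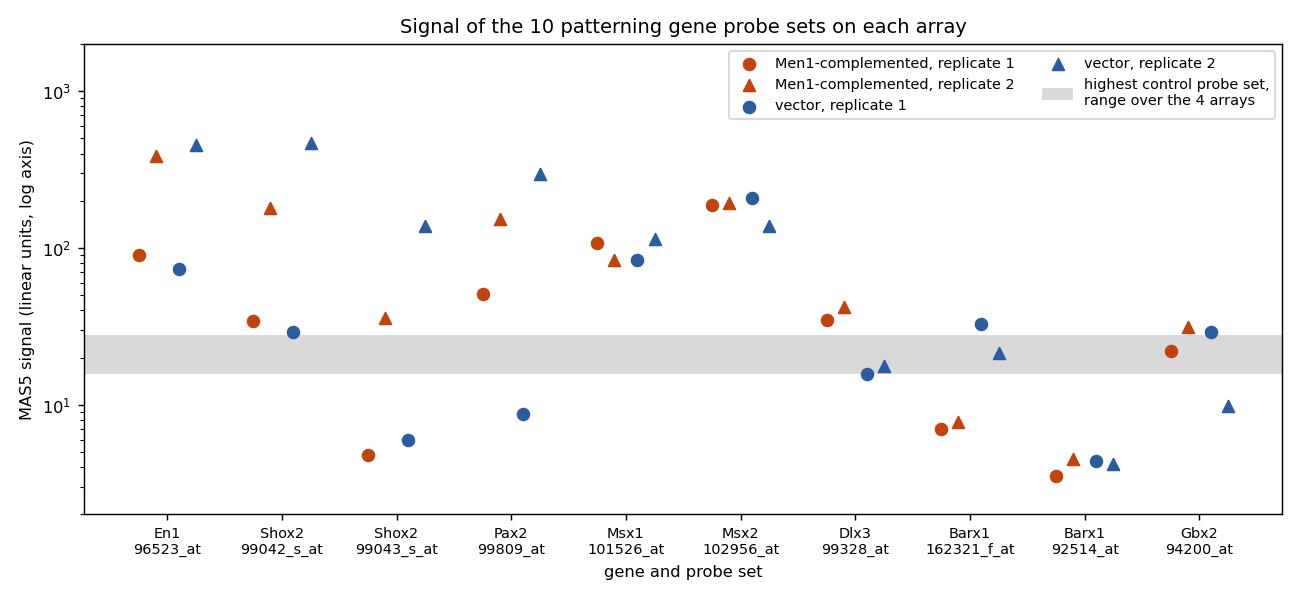
Signal of each probe set (log axis) on the 4 arrays, with Men1-complemented arrays in orange left of vector arrays in blue, replicate 1 as circles and replicate 2 as triangles. The grey band spans the highest control signals, 15.9 to 27.4. En1, Shox2 and Pax2 triangles lie above their circles in both groups, whereas Dlx3 and the brighter Barx1 probe set separate by colour.

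En1, the engrailed factor of the ventral limb ectoderm and the midbrain, read 384.9 on Men1-complemented replicate 2 and 90.3 on replicate 1. On the vector arrays it read 451 on replicate 2 and 73.6 on replicate 1. Each replicate 2 array was thus above each replicate 1 array, and all 4 were above the controls. The difference by number in log2(signal + 16) was 1.92 in Men1-complemented cells and 2.38 in vector cells. Between the groups the means were 237.6 ± 208.3 with Men1 and 262.3 ± 266.9 with vector (SD, n = 2 each). The log2 difference, Men1-complemented minus vector, was 0.01 with a standard error (SE) of 0.99, so the spread within each group was many times the difference between them.

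Shox2, which acts in proximal limb and sinus node development, had the widest span between groups among these 3 genes on the replicate 2 arrays. Its brighter probe set read 179.4 on Men1-complemented replicate 2 and 34.3 on replicate 1, beside 465.6 and 29 on vector replicates 2 and 1. The second read 35.9 and 4.8 on Men1-complemented replicates 2 and 1, beside 137.2 and 6 on vector replicates 2 and 1. The pair gave the same order of arrays apart from the replicate 1 arrays, whose signals lay close together. Both carry the ending _s_at, and whether they read separate sequences, and of Shox2 alone, was not tested. In log2(signal + 16), the brighter probe set differed by number by 1.96 with Men1 and 3.42 with vector. For the dimmer one both replicate 1 arrays were at or below the controls, so replicate 2 was at least 1.24-fold higher with Men1 and at least 4.80-fold higher with vector on the signal + 16 scale.

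Group differences of Shox2 depended on the number. Between the replicate 2 arrays, Men1-complemented minus vector was -1.30 for the brighter and -1.56 for the dimmer probe set. Between the replicate 1 arrays it was 0.16 for the brighter probe set, and the dimmer was below the control on both. The difference of group means was -0.57 (SE 1.27) for the brighter and -0.82 (SE 1.01) for the dimmer, in the fit without the replicate number. Without vector replicate 1 these differences were -2.28 and -2.22, and without vector replicate 2 they were 1.14 and 0.58, so single arrays set their size and sign.

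Pax2, a paired-box factor of kidney, eye and midbrain development, read 153.3 on Men1-complemented replicate 2 and 50.9 on replicate 1. With vector it read 296.2 on replicate 2 and 8.8 on replicate 1, the last of these below the control of that array. Replicate 2 was thus 3.01 times replicate 1 in Men1-complemented cells and at least 9.79-fold higher, on the signal + 16 scale, in vector cells. The Men1-complemented array was higher among the replicate 1 arrays, where the vector signal was below its control, and lower among the replicate 2 arrays (log2 difference -0.88). The difference of means was 0.27 with an SE of 1.26. It turned to -1.55 without vector replicate 1 and was 2.10 without vector replicate 2.

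**Figure D2:**
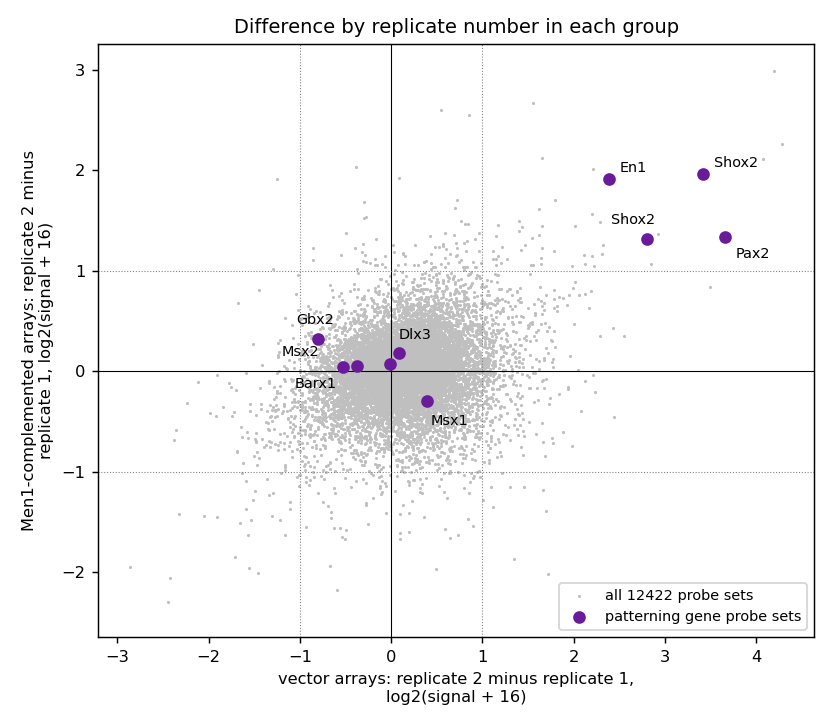
Difference between replicate 2 and replicate 1 in log2(signal + 16), with vector arrays on the horizontal axis and Men1-complemented arrays on the vertical axis. Grey points are all 12422 probe sets, purple points the 10 probe sets of the patterning genes, and dotted lines stand at 1 and -1. En1, Pax2 and both Shox2 probe sets lie in the upper right, beyond 1 on both axes as read (Pax2 with vector and the dimmer Shox2 with both have a replicate 1 signal below the control), and the other 6 lie within 1 of zero.

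Ranked by the mean difference by number over the 2 groups as read, from replicate 2 highest, the brighter Shox2 probe set stood at place 4 (2.69) and En1 at place 7 (2.15) of 12422. The genes were selected in part on differences by number on these same arrays, so the places are a description only. Pax2 and the dimmer Shox2 probe set are given no place, since their differences take in replicate 1 signals below the controls. The median over all probe sets was 0.06, and that of the 10 was 0.09. These differences were taken with the authors' scaling, and the count of 4 was the same with quantile normalization, equal medians and equal 75th percentiles. As read, Pax2 had the widest range of the members that exceeded the controls on at least 2 arrays, 3.65 on the log2 scale. With its lowest signal set to the control the range is 3.29, under the 3.42 of the brighter Shox2 probe set, so the choice of Pax2 rests on a signal below the controls. The 3 probe sets most like Pax2 by the root mean square distance of log2(signal + 16) over the 4 arrays, each centred on its own mean, were of Col1a2 (0.19), Igfbp4 (0.53) and Sorbs3 (0.55). This probe set of Col1a2, a chain of collagen I, read 118.8 and 59.6 on Men1-complemented replicates 2 and 1, beside 247.7 and 7.4 on vector replicates 2 and 1, the last again below the control. The brighter Col1a2 probe set read 347.7 and 283.5 on Men1-complemented replicates 2 and 1, beside 345.3 and 311 on vector replicates 2 and 1, so the 2 probe sets of the gene disagree in the size of the difference. By the same measure the 2 Shox2 probe sets lay 0.34 apart. With 4 arrays such likeness is a description.

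Msx1 and Msx2, homeodomain repressors that act downstream of BMP in limb mesenchyme, teeth and skull, exceeded the controls on all 4 arrays and did not separate the groups. Msx1 read 107.1 and 84 on Men1-complemented replicates 1 and 2, against 83.6 and 114.3 on vector replicates 1 and 2. Its ranges overlapped fully, and the group difference was -0.04 (SE 0.23). Msx2 read 188.8 and 194.6 on the Men1-complemented arrays, against 207.1 and 138.2 on the vector arrays. The Men1-complemented signals lay between the vector signals, with a group difference of 0.16 (SE 0.24). Differences by number were -0.30 and 0.39 for Msx1, and 0.04 and -0.53 for Msx2, in Men1-complemented and vector cells in that order. Replicate 2 was thus higher in 1 group and lower in the other for each of the pair, unlike for En1, Shox2 and Pax2.

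Dlx3 was the member with more signal in the Men1-complemented cells. Dlx3, a distal-less factor of epidermis, placenta and bone, read 35 and 41.8 on the Men1-complemented arrays, against 15.8 and 17.7 on the vector arrays. Both Men1-complemented arrays lay above both vector arrays, as for 10.4% of all probe sets, and both vector signals were at control level. The group means were 38.4 ± 4.8 with Men1 and 16.8 ± 1.3 with vector (SD, n = 2 each), and the difference was 0.73 (SE 0.18) in log2(signal + 16). Counted against the controls of the vector arrays, Dlx3 was at least 1.60-fold higher with Men1 on the signal + 16 scale. The controls of the Men1-complemented arrays were brighter, at 25.9 and 27.4 against 15.9 and 20 on the vector arrays. The difference was 0.68 between the replicate 1 arrays and 0.78 between the replicate 2 arrays.

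Barx1, a Bar-class factor of stomach mesenchyme and developing joints, was the member with less signal in the Men1-complemented cells, in 1 of its 2 probe sets. The brighter probe set, of the _f_at kind, read 7 and 7.8 on the Men1-complemented arrays, against 32.8 and 21.5 on the vector arrays. Its groups did not overlap, as for 11.7% of all probe sets in that direction. The difference was -0.87 (SE 0.21), -1.09 between the replicate 1 arrays and -0.66 between the replicate 2 arrays. The Men1-complemented signals were at control level, and each vector signal exceeded the control of its own array. Set against the controls of the Men1-complemented arrays, the vector signals were at least 1.00-fold higher in vector cells, a bound that shows no difference in level. The other probe set read 3.5 and 4.5 with Men1, against 4.4 and 4.2 with vector, at control level in both groups, with a difference of -0.02 (SE 0.17). The ending _f_at marks, in the maker's naming, a probe set that can match a family of related sequences, and whether its signal came from Barx1 alone was not tested.

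Gbx2, a factor that positions the midbrain and hindbrain border, read 22 and 31.5 on the Men1-complemented arrays, against 29 and 9.8 on the vector arrays. The groups overlapped, and 1 array of each group exceeded its control. The difference was 0.32 (SE 0.32), with -0.24 between the replicate 1 arrays and 0.88 between the replicate 2 arrays, which differ in sign. Gbx2 therefore gave no direction that both numbers shared.

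**Figure D3:**
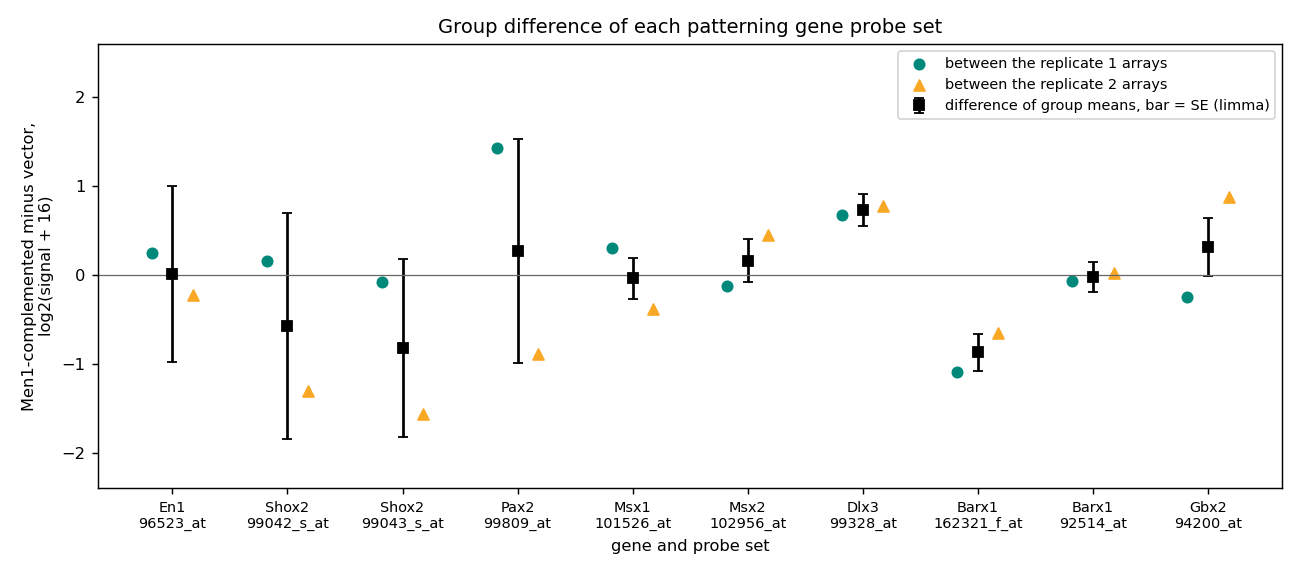
Difference between Men1-complemented and vector cells in log2(signal + 16) for each probe set. Squares are differences of group means with the limma SE as bars, circles the difference between the replicate 1 arrays and triangles that between the replicate 2 arrays. Dlx3 lies above zero and the brighter Barx1 probe set below zero for both numbers, whereas the circles and triangles of En1, Pax2, Msx1, Msx2, Gbx2, the brighter Shox2 and the dimmer Barx1 probe set lie on opposite sides of zero.

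Over the group contrast as a whole, 5 of the 10 probe sets had a positive and 5 a negative difference, with a median of -0.0044, beside -0.01 over all probe sets. In the fit across all 12422 probe sets with limma, none passed an adjusted p of 0.05 (0%), and 233 had an unadjusted p below it. That is a smaller share than the 0.05 that would fall there with no group difference. Groups did not overlap for 1 member probe set in each direction, beside 10.4% and 11.7% of all. Of the 10, 4 exceeded the controls on all 4 arrays, 5 on some and 1 on none. The probe sets whose groups did not overlap, those of Dlx3 and Barx1, were both at control level in 1 group.

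Relatives of these genes, listed by family, were measured for 15 of 18. None passed the limma threshold, and the median group difference was -0.15. Both Men1-complemented arrays were above both vector arrays for 1 of them, Dlx1, beside 10.4% of all probe sets. They were below them for 2, Barx2 and Pax9, beside 11.7% of all, and both of these were at control level in both groups, so no direction is read from them. The 3 genes were named after their values were seen. Dlx1, a paralogue of Dlx3, read 38.7 and 27.6 on the Men1-complemented arrays, against 22.2 and 10.9 on the vector arrays. By number, 7 (46.7%) were higher on both replicate 2 arrays, beside 28.7% of all, and 1 was lower. The lower 1 was Pax4, also named after its values were seen. En2, the paralogue of En1, read 95.2 and 49.8 on Men1-complemented replicates 2 and 1, beside 206.5 and 37.6 on vector replicates 2 and 1, which is the order of arrays of the brighter Shox2 probe set. Dlx2, another paralogue of Dlx3, read 340.7 and 267.1 beside 282.6 and 222.2 in the same order, with a group difference of 0.25 (SE 0.22). Pax3 differed between the groups by 0.45 (SE 0.31) and Pax6 by -0.07 (SE 0.18), both with groups that overlap.

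Other homeobox genes outside the Hox clusters were measured for 54 of 88, of which 26 did not exceed the controls on any array. Both Men1-complemented arrays read above both vector arrays for 3 (5.56%, beside 10.4% of all), Nkx3-2, Cdx1 and Pdx1, named after their values were seen. None of the 3 exceeded a control on any array, and they give no direction. They read below for 8 (14.8%, beside 11.7% of all), of which 6 exceeded a control on at least 1 array. None passed the limma threshold, and the median group difference was 0.0003. By number, 22 read higher and 6 lower on both replicate 2 arrays (51.9% apart, beside 44.7% of all), of which 10 and 4 exceeded a control on at least 1 array, with a median of 0.11. Of the 4 brightest, Tgif1 and Zeb1, repressors with a homeodomain, were lower on replicate 2, at 628.1 and 818.3 on Men1-complemented replicates 2 and 1 for Tgif1, and at 309.4 and 481.9 for Zeb1. On vector replicates 2 and 1 they read 501.1 and 919.5 for Tgif1 and 290.5 and 476.8 for Zeb1. Cux1 differed between the groups by 0.05 (SE 0.20). Prrx2, a paired-related factor of limb mesenchyme, read 285.8 and 307 on the Men1-complemented arrays, against 324.6 and 534.1 on the vector arrays, a difference of -0.47 (SE 0.28).

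Signals and regulators of limb and axis patterning were measured for 45 of 49. Groups did not overlap for 10 that read higher (22.2%, beside 10.4% of all probe sets) and 7 that read lower with Men1 (15.6%, beside 11.7%), of which 9 and 5 exceeded a control on at least 1 array. None passed the threshold, and the median was 0.04. Snai2, a repressor of neural crest and mesenchyme, read 1012 and 1033 on the Men1-complemented arrays, against 851.4 and 966.2 on the vector arrays, and Id3, a BMP target, differed by 0.24 (SE 0.22). Fgfr1 differed by -0.13 (SE 0.18) and Twist2 by 0.01 (SE 0.26). By number, 13 (28.9%, beside 28.7% of all) were higher and 6 lower on both replicate 2 arrays, and 1, Foxd1, exceeded 1 on the log2 scale in each group. The 13 included Bmp4, a ligand upstream of Msx genes, at 134.3 and 86.6 on Men1-complemented replicates 2 and 1, beside 249 and 83.1 on vector replicates 2 and 1, and its antagonist Nog. The largest was Foxd1, a forkhead factor of kidney stroma, which read 129.8 and 33.4 on Men1-complemented replicates 2 and 1, beside 191.9 and 29.1 on vector replicates 2 and 1. Bmp4, Nog and Foxd1 were named after their values were seen.

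**Figure D4:**
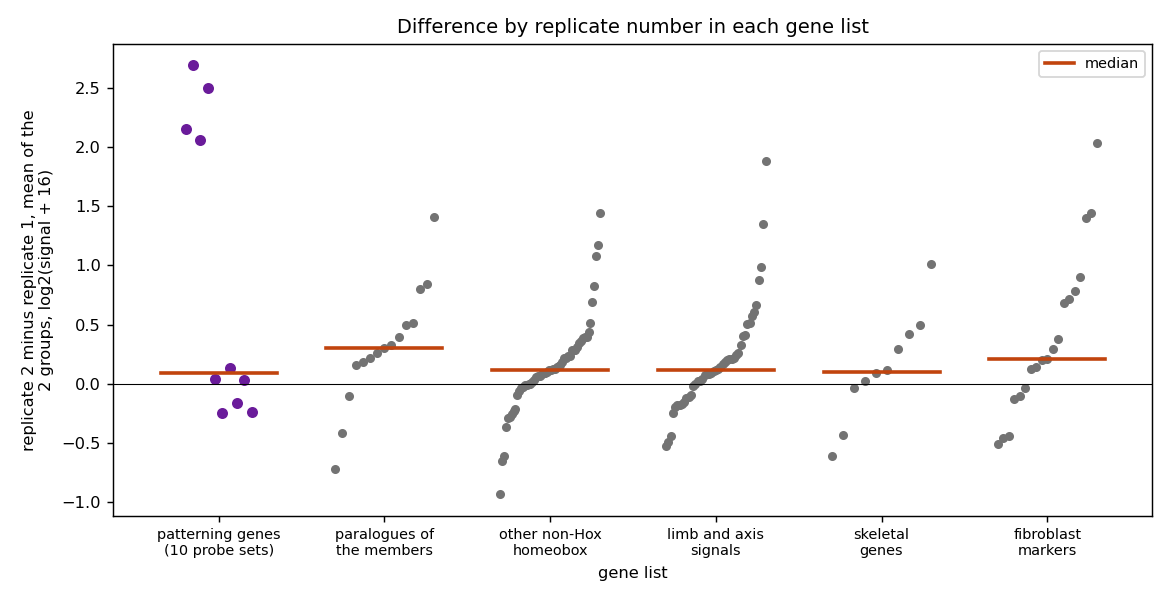
Difference between replicate 2 and replicate 1 in log2(signal + 16), as the mean of both groups, for each patterning gene probe set (purple) and for the genes of 5 lists (grey), each by its brightest probe set, with the median of each as an orange bar. Medians lie between 0.09 and 0.30, and En1, Pax2 and both Shox2 probe sets stand above 2 as read. So does Postn of the fibroblast markers, at 2.03.

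Skeletal genes that Msx and Dlx factors regulate were measured for 10 of 16. With groups that did not overlap, 0 were higher and 2 of the 10, Sparc and Acan, were lower with Men1, beside 11.7% of all. By limma 0 passed the threshold, and the median was 0.04. Sparc, a matrix protein of bone, read 2156 and 2282 on the Men1-complemented arrays, against 2598 and 2867 on the vector arrays. Acan, the cartilage proteoglycan aggrecan, named after its values were seen, read 4.1 and 3.2, against 5 and 27.8, with only vector replicate 2 above its control. Alpl, alkaline phosphatase, differed by -0.34 (SE 0.27), Col1a1 by 0.07 (SE 0.21) and Ibsp, bone sialoprotein, by 0.42 (SE 0.74).

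Markers of fibroblasts and of other cell types were counted by number in the same way, beside 28.7% of all probe sets that were higher on both replicate 2 arrays and 44.7% apart in either direction. Of 19 measured fibroblast markers 9 (47.4%) were higher on both replicate 2 arrays, among them Postn, Prrx1 and Dcn, and 3 were lower, Col5a1, Pdgfrb and Twist2. The summed signal of the 19 was 9983 and 11604 on Men1-complemented replicates 2 and 1, beside 11561 and 9745 on vector replicates 2 and 1. Col1a1 alone gave 6176 and 7619 of this, beside 7092 and 6057, in the same order. As read, Postn exceeded 1 on the log2 scale in both groups (1.52 with Men1 and 2.54 with vector). Its replicate 1 signals, 5.7 and 8.2, were below the controls. Of 12 epithelial markers 4 (33.3%) were higher, Cdh1, Krt18, Cldn3 and Cldn7, and 0 were lower, with sums of 402 and 276.8 beside 364.9 and 321 in that order, and 7 did not exceed the controls on any array. Neural markers had 6 higher of 11 (54.5%), 1 of them above a control on any array, and 3 lower, Tubb3, Map2 and Sox2, with sums of 1605 and 2014 beside 1597 and 2314. Of 9 blood markers Ptprc, Cd68, Adgre1 and Cd3e were higher and Hba-a1 was lower, with sums of 183 and 180.3 beside 227.4 and 193.2. Of 9 endothelial markers Tek and Vwf were higher and Flt1 was lower, with sums of 156.8 and 248.7 beside 177.4 and 160.1. Of 12 skeletal muscle markers Myod1, Myf6, Tnnt1 and Chrna1 were higher and Ckm, Actc1 and Acta1 lower, with sums of 1183 and 1232 beside 1207 and 1465. Tubb3 and Sox2 made up most of the neural sums, and Actc1 most of the muscle sums. The Tubb3 and Actc1 probe sets are of the _f_at kind. Of the named markers, Cldn7, Map2, Ptprc, Adgre1, Cd3e, Tek, Vwf, Myf6 and Chrna1 were above no control, so their order is not read as a change. The epithelial, endothelial (22.2% higher) and muscle (33.3% higher) shares lay near that of all probe sets. No marker was at 0 on all 4 arrays. The markers given by name here were named after their values were seen. The part of these lists in the differences of En1, Shox2 and Pax2 was not tested.

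Between the groups, both Men1-complemented arrays were above both vector arrays for Twist1, Krt19, Pecam1 and Cldn5 and below them for Loxl1, S100a4, Kdr, Cd79a, Myog and Tnni1, that is 4 (5.56%) and 6 (8.33%) of 72 measured markers over the 6 lists, beside 10.4% and 11.7% of all probe sets. Cldn5 was at control level in both groups. These markers were named after their values were seen. Their part in the values of Dlx3 and Barx1 was not tested.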

How the data were processed

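The values used are those the authors deposited: linear intensity of each probe set, from MAS5 in Affymetrix Expression Console according to the submitters' processing notes. Versions and scaling target are not given in the sources used here. After a trim of 2% at each end, mean signals lay between 150.07 and 150.08, so the authors had brought all arrays to a common level, which hides any change in total RNA. Of 12488 probe sets, 66 controls were left out. Among the 12422 tested, 10833 carried 1 gene symbol, 396 several and 1193 none.

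Signals were analysed as log2(signal + 16), which understates folds of dim probe sets. Differences are Men1-complemented minus vector. The whole table was fitted at once (limma 3.58.1, R 4.3.3, lmFit and eBayes, two-sided). P-values were adjusted by Benjamini-Hochberg against a threshold of 0.05, with 2 residual and 2.87 prior degrees of freedom. The fit was tested on simulated data. The number of arrays limits precision: the median SE was 0.22, and an exact permutation test of 2 arrays against 2 cannot go below p = 0.333. For a group at control level, "at least" takes the larger of its own signal and the control on each array.

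Members and lists were chosen with earlier results of these data known. In each other list, apart from the cell type markers, the 4 genes of highest mean signal could be named. So could the 3 probe sets most like the member of widest range, and Men1 as the targeted gene. Other genes and markers were named after their values were seen. Coordinates belong to RefSeq sequences on GRCm38.p6, since no build was named for the arrays. Alternatives changed the pseudocount, scaling, dim filter, replicate block, prior trend and arrays.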

Additional observations from a re-analysis of the deposited data

How the results depend on the processing

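Over all settings run, limma called 0 probe sets. The number with an unadjusted p under 0.05 was 233 in the reported fit and ranged between 121 (without Men1-complemented replicate 1) and 1031 (without vector replicate 1). Without vector replicate 2 the count was 559, without Men1-complemented replicate 2 it was 131, and with dim probe sets left out 130 of 9258. The replicate numbers are given without saying what they mark. Over all probe sets, the deviations of same-numbered arrays from their group means correlated at 0.26, and 44.7% of probe sets were apart by number. What lies behind the number was not tested, and it entered the fit only as an alternative. With the replicate block, 0 probe sets passed and 297 had an unadjusted p under 0.05. The SE of the Shox2 group differences, -0.57 and -0.82, was then 0.38 for both probe sets. The brighter still differed in sign by number (0.16 and -1.30), and the dimmer had replicate 1 signals below the controls. No Shox2 group effect is therefore read from this fit. Under the same block Pax2 differed by 0.27 (SE 0.55) and En1 by 0.01 (SE 0.22).

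The count of member probe sets whose groups do not overlap was 2 and that of probe sets apart by number was 4 under the 3 scalings. Both counts rest on the order of the arrays, which another pseudocount cannot change. The dim filter took out only the dimmer Barx1 probe set, which was in neither count. These settings are therefore no check of the counts. Without single arrays, which leaves 3 to compare, the count by group was 4 to 9 and that by number 6 to 8. Counts by number under other settings were added after the data were seen. Of 69 member differences under settings that keep all arrays, 5 moved by more than the SD between replicates, all of Dlx3 or Barx1 under another pseudocount: Dlx3 was 1.15 with a pseudocount of 1 and 0.34 with 64, and the brighter Barx1 probe set -1.72 and -0.35. The sign changed in 3, En1 (-0.04 after quantile normalization and -0.02 at a pseudocount of 64) and Pax2 (-0.04 at 64). The SD between replicates was 1.53 to 1.97 for En1, Shox2 and Pax2, since it takes in the difference by number. Few shifts could exceed it, so the count of 5 tells little of these 3 genes. Signals near the controls limit Dlx3, Barx1 and Gbx2.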

Other observations

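Of the 78 probe sets that differed by replicate number by more than 1 on the log2 scale in both groups in the same direction, 49 were higher and 29 lower on replicate 2. Hox probe sets with a single symbol among them were those of Hoxb4 and Hoxb8, both lower as read, opposite to En1, Shox2 and Pax2. Hoxb4 read 20.9 and 79.3 on Men1-complemented replicates 2 and 1, beside 21.9 and 66 on vector replicates 2 and 1. Hoxb8 read 25.3 and 70.7 on the Men1-complemented arrays, beside 16.9 and 68.4 on the vector arrays, in the same order. On Men1-complemented replicate 2 both genes were below the control of 27.4. On vector replicate 2 Hoxb8 was below the control of 20. The sizes of these differences by number therefore take in signals below the controls. Their group differences were 0.09 (SE 0.59) and 0.18 (SE 0.58). These genes were named after their values were seen.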
